A study of Mus musculus with 6 samples.

Results

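The 51 lysine and histidine tRNA genes measured here were all the rows named for these 2 amino acids among 16310 non-coding RNAs, of which 471 were tRNA genes. They comprised 40 lysine rows, 26 with the anticodon CTT and 14 with TTT, and 11 histidine rows, 10 with GTG and 1 with ATG. They were read in small RNA libraries of exosomes, membrane vesicles shed into the culture medium, from mouse dorsal skin cells at passage 0 to 1. Epidermal stem cells (ESC) gave 3 libraries and dermal fibroblasts (Fb) gave another 3, and the question was how the RNA cargo of Fb exosomes differed from that of ESC exosomes.

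The ESC were rapidly adhering epidermal cells of C57BL/6 mice aged 3 weeks, grown without serum in a medium for keratinocytes. The Fb were cells freed from the dermis of db/db mice aged 14 weeks, which have obesity and diabetes. They were grown with serum and then without it for 2 days before collection. C57BL/6 is given as the strain of all 6 libraries, and the labels do not say how this goes with db/db for the Fb donors. Cell type, donor genotype, age and medium cannot be told apart in this comparison. The labels call the libraries of a group biological replicates but tie none to an animal, and the tests weigh differences only against the variation among them.

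Transfer RNAs carry an amino acid to the ribosome, where the anticodon reads the codon of the message. The lysine anticodon TTT reads both lysine codons and bears a heavily modified uridine at its first position, whereas CTT reads the codon ending in G. Histidine is read by GTG, whose first base can be exchanged for queuosine, and the histidine tRNA is unusual in receiving an extra guanosine at its 5′ end. Cells cut tRNAs into fragments, often under stress, and such fragments are common in extracellular vesicles. By the naming scheme, genes of 1 isodecoder, the fourth field of a tRNA name, share one mature sequence, so reads were summed over isodecoders, anticodons and amino acids.

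RefSeq (GRCm38.p6, the build of the files) listed 37 lysine and histidine tRNA genes, named differently from the rows of the tables and not paired with them. They lay on 14 chromosomes, 29 between the genes of GENCODE M21 and 8 in introns, with none in an annotated exon. The largest group of histidine genes, 6 of the 10 with GTG, lay on chromosome 3 between 96410069 and 96500437, together with 2 lysine CTT genes. Another 3 histidine genes lay on chromosome 2 between 122375494 and 122378039. The 2 lysine TTT genes listed, n-TKttt23 and n-TKttt22, were on chromosome 13 at 21907940 to 21908012 and 21971788 to 21971860, outside any annotated gene. An example within a gene was n-THgtg10, on chromosome 4 at 82619623 to 82619694, in an intron of Nfib.

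Assigned reads numbered 9894485 to 11149046 in ESC and 6914504 to 8691350 in Fb libraries, of which tRNA genes took 78.7% to 79.9% and 80.5% to 89.6%. Fb replicate 1 stood apart from the other Fb libraries. It had 3260 RNAs with at least 10 reads, near the 3280 to 3581 of the ESC libraries, against 952 and 1180 in Fb replicates 2 and 3. The labelled cell types matched their miRNAs. A list of 7 epithelial miRNAs held 5.98% to 7.45% of mature miRNA reads in ESC and 0.673% to 1.33% in Fb libraries, and 6 mesenchymal miRNAs held 0.0175% to 0.0209% and 17.6% to 28.5%. A list of 5 blood-cell miRNAs held 9.56e-05% to 0.000338% in ESC and 0.00185% to 0.00713% in Fb libraries. They were thus scarce in both groups but higher in every Fb library, with 2 of them at 0 in each group. Their part in the results below was not tested.

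Lysine tRNAs made up a larger share of tRNA reads in Fb than in ESC exosomes, although not of those outside glycine and glutamate tRNAs, and most of the gain was in the anticodon CTT. Lysine tRNAs took 0.143%, 0.171% and 0.118% of tRNA reads in ESC replicates 1, 2 and 3. They took 0.867%, 3.40% and 2.58% in Fb replicates 1, 2 and 3. Every Fb library lay above every ESC library, with Fb replicate 1 the lowest of its group. The means were 0.144% ± 0.0265 (SD, n = 3) and 2.28% ± 1.29 (SD, n = 3), a ratio of 15.8.

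Reads of Lys-CTT, the tRNA that serves the lysine codon ending in G, were 1446, 2251 and 1241 in ESC replicates 1, 2 and 3. In Fb replicates 1, 2 and 3 they were 54003, 206873 and 137251. As shares of tRNA reads these were 0.0184%, 0.0253% and 0.0152% against 0.754%, 2.95% and 2.35%. The groups were far apart, since the lowest Fb library lay well above the highest ESC library. The means were 0.0196% ± 0.00515 in ESC and 2.02% ± 1.14 in Fb exosomes, a ratio of 103.

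Lys-TTT, the tRNA with the modified uridine, behaved otherwise. Its reads numbered 9822, 12998 and 8410 in ESC and 8093, 31266 and 13398 in Fb replicates 1, 2 and 3. It took 0.125%, 0.146% and 0.103% of tRNA reads in ESC and 0.113%, 0.447% and 0.229% in Fb exosomes. The groups overlapped, because Fb replicate 1 fell within the ESC range. The means were 0.125% ± 0.0215 and 0.263% ± 0.169, a ratio of 2.11.

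His-GTG, which held nearly all histidine reads, took more of the tRNA reads in every Fb library, and less of those outside glycine and glutamate tRNAs. Its reads numbered 5658, 6151 and 5378 in ESC and 44123, 90339 and 63049 in Fb replicates 1, 2 and 3. It took 0.0720%, 0.0691% and 0.0659% of tRNA reads in ESC and 0.616%, 1.29% and 1.08% in Fb exosomes. ESC libraries lay close together, and Fb replicate 1 was again the lowest of its group. The means were 0.0690% ± 0.00307 and 0.995% ± 0.345, a ratio of 14.4. The row with the anticodon ATG held 0.458 of an estimated read in ESC replicate 1 and 0 elsewhere. A count of 0 allows up to 3 reads, or 3.37e-05% to 5.14e-05% of tRNA reads in a library.

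**Figure D1:**
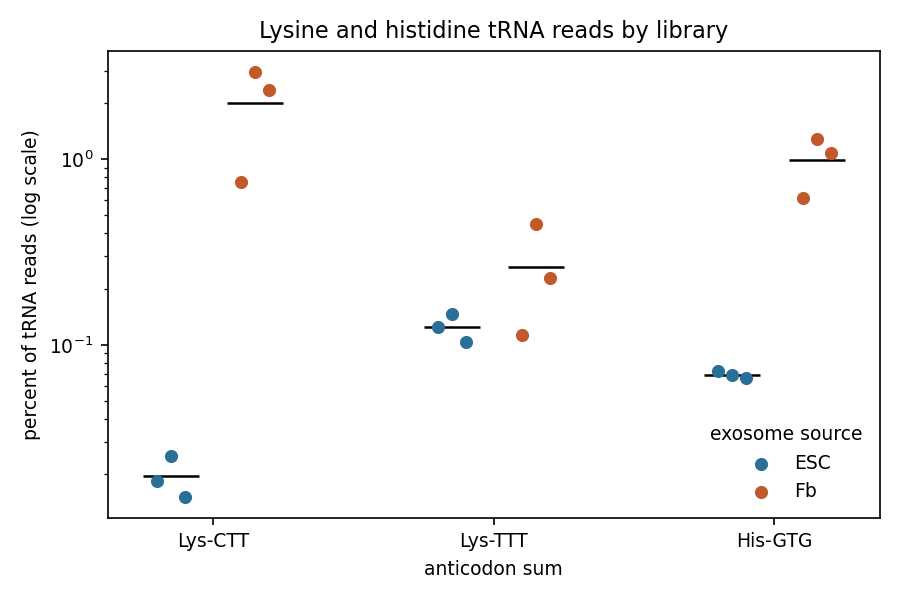
Share of tRNA reads (percent, log scale) held by Lys-CTT, Lys-TTT and His-GTG in each library, where points are replicates 1 to 3 from left to right in each group and bars are group means (n = 3). Fb libraries lie above all ESC libraries for Lys-CTT and His-GTG and overlap them for Lys-TTT. On the scale of tRNA reads outside glycine and glutamate tRNAs, the Lys-TTT and His-GTG differences turn around.

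Counting error was small beside these differences. The exact Clopper-Pearson 95% intervals of single libraries extended at most 5.60% of the value for Lys-CTT, 2.18% for Lys-TTT and 2.68% for His-GTG, and they cover counting error only. Exact two-sided permutation tests on the shares gave p = 0.1 for lysine, histidine, Lys-CTT and His-GTG, the smallest p that 3 against 3 libraries allow, and p = 0.3 for Lys-TTT. Adjusted by Benjamini-Hochberg, the exact p was 0.122 for the amino acids over 22 compared, 0.121 for Lys-CTT and His-GTG over 47 anticodons and 0.313 for Lys-TTT. Non-overlap with higher Fb values was the common pattern, met by 77.3% of the amino acids and 74.5% of the anticodons, while 4.55% and 8.51% were higher in every ESC library. A share within a library does not depend on how many vesicles of the same make-up each cell sheds. Whether a higher share came from more of these RNAs per vesicle or from fewer reads of other tRNAs was not tested.

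When anticodon sums were tested as parts of all tRNA reads, Lys-CTT and His-GTG rose in Fb exosomes and Lys-TTT did not pass. Lys-CTT had a log2 fold change (Fb minus ESC) of 6.68 (SE 0.66, adjusted p = 4.47e-07, from edgeR's quasi-likelihood test, Benjamini-Hochberg). His-GTG had one of 3.85 (SE 0.58, edgeR adjusted p = 2.78e-05). Lys-TTT had one of 1.08 (SE 0.67, edgeR adjusted p = 0.136), and without Fb replicate 1 it passed at 1.44 (SE 0.42, edgeR adjusted p = 0.00900). These 2 calls among 3 members stand beside a background in which 72.3% of the 47 anticodons tested rose and 8.51% fell. Among amino acid sums, where 77.3% of 22 rose and 4.55% fell, lysine (3.98, SE 0.55, edgeR adjusted p = 4.75e-04) and histidine (3.85, SE 0.40, edgeR adjusted p = 2.85e-04) rose.

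Set among the other anticodons, Lys-CTT stood high, His-GTG near the middle and Lys-TTT low. By the ratio of Fb to ESC mean shares, Lys-CTT ranked 3 of 47 anticodons, His-GTG 19 and Lys-TTT 37. The median log2 fold change of all 47 was 2.54, so Lys-CTT lay 4.14 above it, His-GTG 1.31 above it and Lys-TTT 1.47 below it. TMM factors moved that median by -3.02, and 12 anticodons then rose and 16 fell, against 34 and 4 with tRNA totals. On that scale Lys-CTT still rose (3.41, SE 0.42, edgeR adjusted p = 3.87e-05), His-GTG did not pass (0.64, SE 0.38, edgeR adjusted p = 0.170) and Lys-TTT fell (-2.27, SE 0.36, edgeR adjusted p = 2.71e-04). Relative to the median anticodon the order held under every setting run within tRNA reads. Lys-CTT lay 3.79 to 4.65 above that median, His-GTG 0.95 to 1.81 above it and Lys-TTT 0.96 to 1.92 below it. For most settings this is no separate check. A change of scale moves all anticodons nearly alike, so subtracting the median takes it out, and the count filters left these 3 fold changes as they were.

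**Figure D2:**
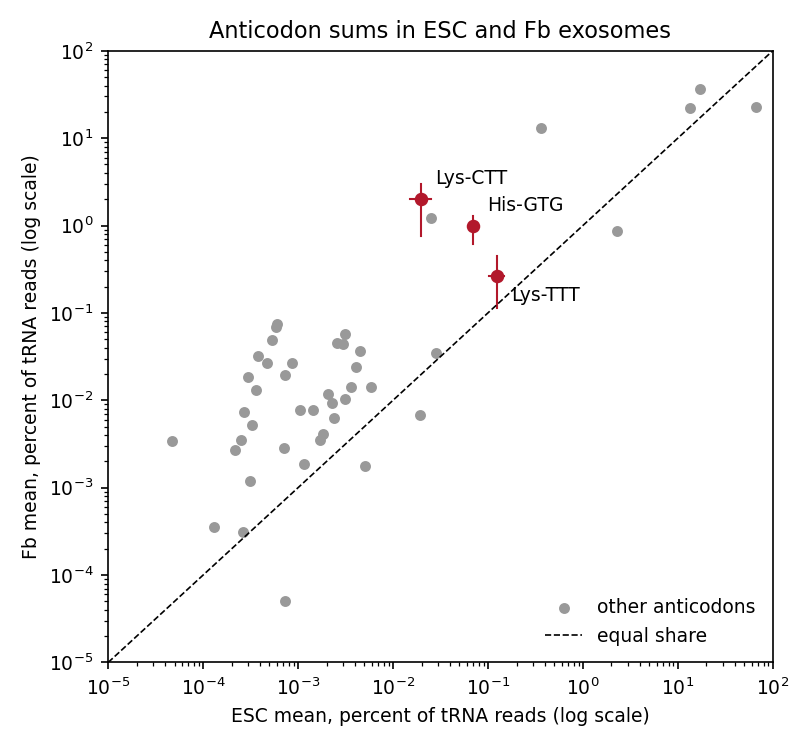
Mean share of tRNA reads (percent, log scales) in ESC exosomes on the horizontal axis and in Fb exosomes on the vertical axis for 47 anticodon sums with a mean of at least 10 reads (n = 3 per group). Red points are the lysine and histidine anticodons with lines from the lowest to the highest library, grey points the other anticodons. Most points lie above the line of equal share, Lys-CTT far above it and Lys-TTT close to it. The side on which Lys-TTT and His-GTG fall depends on the scale, and TMM factors put Lys-TTT lower in Fb exosomes.

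As parts of all assigned reads, the same members were called. The share of Lys-CTT was 0.0156% ± 0.00420 for ESC and 1.68% ± 0.892 for Fb exosomes, and it rose by 6.75 on the log2 scale (SE 0.56, adjusted p = 1.19e-06, edgeR). His-GTG held 0.0547% ± 0.00269 and 0.834% ± 0.253 (3.93, SE 0.43, edgeR adjusted p = 2.05e-05). Lys-TTT held 0.0990% ± 0.0178 and 0.218% ± 0.131 (1.14, SE 0.51, edgeR adjusted p = 0.235), and passed without Fb replicate 1 (1.48, SE 0.31, edgeR adjusted p = 0.00464). In that test 3.53% of 2889 RNAs rose in Fb exosomes and 7.27% fell, while 57.4% of the 47 anticodons rose and 6.38% fell. By share, 76.6% of the anticodons were higher in every Fb library.

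These counts over all RNAs depended on single libraries and on the scaling. The 102 RNAs that rose became 60, 64 or 56 without ESC replicate 1, 2 or 3 and 224 without Fb replicate 1. The 210 that fell became 131, 131 or 124 without ESC replicate 1, 2 or 3, 136 without Fb replicate 3 and 2384 without Fb replicate 1. TMM factors gave 198 that rose and 106 that fell. They moved the median of all RNAs by 0.75 and that of the anticodons by 2.44, and the calls for Lys-CTT and His-GTG held in each of these settings.

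Glycine and glutamate tRNAs took most tRNA reads in both groups, so the members were also set against the remaining tRNAs. On that scale Lys-CTT stayed higher in every Fb library, while Lys-TTT and His-GTG were lower. Lys-CTT held 2.96%, 2.78% and 2.62% of these reads in ESC and 4.03%, 17.03% and 12.9% in Fb replicates 1, 2 and 3. Lys-TTT held 20.1%, 16.05% and 17.7% in ESC against 0.605%, 2.57% and 1.26% in Fb exosomes. His-GTG held 11.6%, 7.59% and 11.3% against 3.30%, 7.44% and 5.91%, a narrow separation between ESC replicate 2 and Fb replicate 2. Each of these 3 differences had an exact permutation p = 0.1 (adjusted exact p = 0.147). The adjustment was over 47 anticodons, those of glycine and glutamate included. Of the 41 anticodons outside glycine and glutamate, 12.2% were higher in every Fb library and 51.2% in every ESC library.

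With these reads as library size, Lys-CTT rose by 2.02 on the log2 scale (SE 0.49, edgeR adjusted p = 0.00401) and Lys-TTT fell (-3.60, SE 0.52, edgeR adjusted p = 1.56e-04). His-GTG did not pass (-0.88, SE 0.38, edgeR adjusted p = 0.0622). Of the 49 anticodons tested on this scale, those of glycine and glutamate among them, 5 rose and 27 fell. Their median log2 fold change was -2.20. Lysine as a whole held 20.8% ± 2.15 and 12.8% ± 7.57 of the reads outside glycine and glutamate tRNAs, with overlapping groups (exact permutation p = 0.2).

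The anticodon split of lysine tRNA reads, which does not depend on library scaling, was reversed between the groups. CTT made up 12.8% (exact 95% binomial interval 12.2 to 13.5), 14.8% (14.2 to 15.3) and 12.9% (12.2 to 13.5) of lysine tRNA reads in ESC replicates 1, 2 and 3. It made up 87.0% (86.7 to 87.2), 86.9% (86.7 to 87.0) and 91.1% (91.0 to 91.2) in Fb replicates 1, 2 and 3. TTT thus led in every ESC library and CTT in every Fb library, and Fb replicate 1 did not differ from its group here. The means were 13.5% ± 1.11 and 88.3% ± 2.42 (exact permutation p = 0.1, adjusted exact p = 0.157 over 11 ratios compared). Some of these ratios restate the same quantity, such as the CTT share and the CTT to TTT ratio. The adjusted value is therefore only a rough guide.

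**Figure D3:**
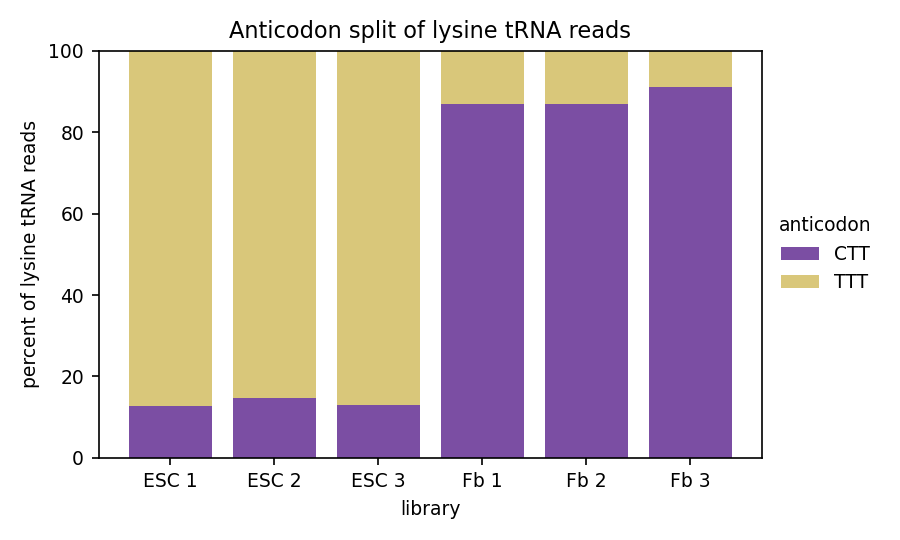
Percent of lysine tRNA reads with the anticodon CTT or TTT in each library, with the ESC libraries on the left and the Fb libraries on the right. CTT holds 12.8% to 14.8% in the ESC libraries and 86.9% to 91.1% in the Fb libraries.

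To set the members' changes against each other, Lys-TTT reads and then His-GTG reads were used as library size. This measure was chosen after the values were seen, so its adjusted p-values are not those of a planned test. Relative to Lys-TTT, Lys-CTT rose by 5.65 on the log2 scale (SE 0.34, edgeR adjusted p = 2.68e-05 over 46 anticodons), where 58.7% of anticodons rose and 8.7% fell. Relative to His-GTG, Lys-CTT rose by 2.74 (SE 0.46, edgeR adjusted p = 6.48e-04) and Lys-TTT fell by 2.87 (SE 0.45, edgeR adjusted p = 4.96e-04), where 21.7% rose and 43.5% fell.

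The sum over both lysine anticodons kept a like ratio to histidine. There were 1.99, 2.48 and 1.79 lysine reads per histidine read in ESC replicates 1, 2 and 3, and 1.41, 2.64 and 2.39 in Fb replicates 1, 2 and 3. The groups overlapped, with means of 2.09 ± 0.352 and 2.14 ± 0.650. On the log2 scale the difference was 0.000253 (exact permutation p = 1), and it ranged from -0.17 to 0.28 when any 1 library was left out. Lysine ranked 4 and histidine 5 among the 22 amino acid groups in all 6 libraries, behind glycine, glutamate and valine.

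Other amino acids have anticodon pairs that differ in the first base in the same way, C against T, and 12 such pairs had a mean of at least 10 reads on both sides. This set was chosen after the values were seen and is described with no test. The log2 ratio of the C to the T anticodon shifted by 5.63 for lysine, from -2.68 ± 0.13 in ESC to 2.94 ± 0.36 in Fb exosomes. The shifts of the other pairs ran from -3.86 for leucine CAG and TAG to 2.26 for glutamate CTC and TTC. As for lysine, the ratio was higher in every Fb library for glutamate and for arginine CCG and TCG. It was higher in every ESC library for leucine, serine CGA and TGA, arginine CCT and TCT and threonine CGT and TGT. The remaining pairs overlapped. Glutamate, whose TTC anticodon bears a like modified uridine, moved the same way as lysine, from 2.56 ± 0.27 to 4.82 ± 0.67. Glutamine CTG and TTG overlapped between the groups, at 3.61 ± 0.31 and 3.97 ± 1.63. So did glycine CCC and TCC, at 13.70 ± 0.20 in ESC and 13.74 ± 0.60 in Fb exosomes. Arginine CCT and TCT moved the other way, from -0.86 ± 0.50 to -3.60 ± 0.67.

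**Figure D4:**
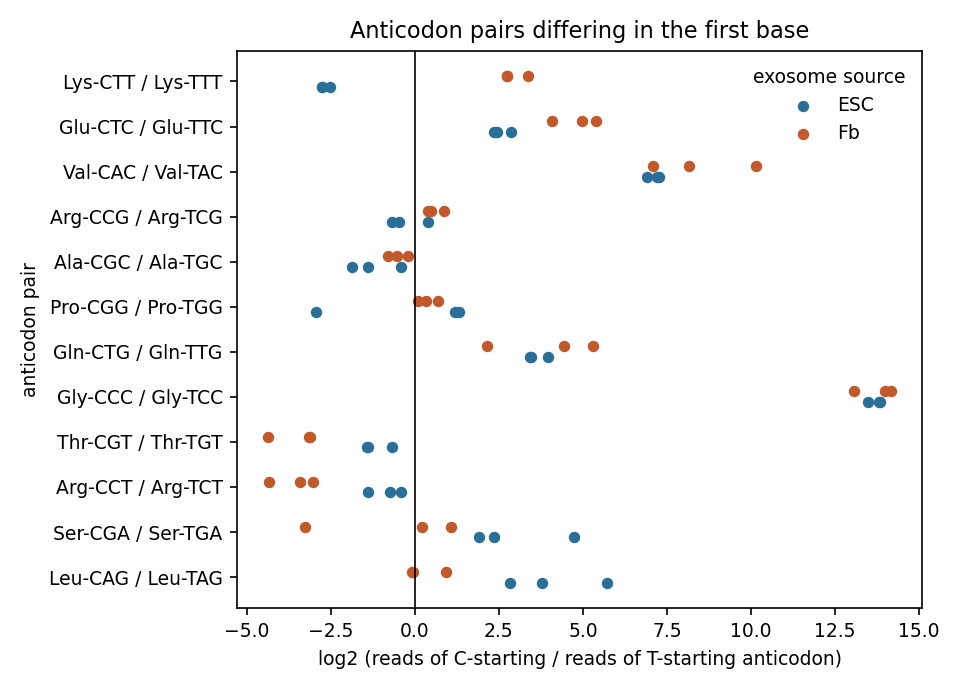
Log2 ratio of reads of the anticodon starting with C to reads of the anticodon starting with T for 12 pairs of the same amino acid, with 1 point per library (3 ESC and 3 Fb). The lysine pair, at the top, lies between -2.76 and -2.53 in ESC and between 2.73 and 3.36 in Fb libraries.

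Of the 29 isodecoders of lysine and histidine, 9 had a mean of at least 10 reads. The other 20 held at most 53.3 reads together in a library and at most 19.2 singly. The 2 main isodecoders of Lys-CTT both rose. Lys-CTT-3 had 1014, 1450 and 860 reads in ESC and 37822, 107463 and 92341 in Fb replicates 1, 2 and 3, and rose within tRNA reads by 6.52 on the log2 scale (SE 0.58, edgeR adjusted p = 4.98e-05). Lys-CTT-2 had 411, 765 and 329 reads in ESC and 16155, 99406 and 44909 in Fb replicates 1, 2 and 3 (7.08, SE 0.82, edgeR adjusted p = 1.78e-04). Both were apart from the ESC libraries in all Fb libraries.

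Their balance within Lys-CTT overlapped between the groups. Lys-CTT-2 made up 28.4%, 34.0% and 26.5% of Lys-CTT reads in ESC and 29.9%, 48.1% and 32.7% in Fb replicates 1, 2 and 3 (exact permutation p = 0.3). Lys-CTT-3 made up 67.9% ± 3.08 and 63.1% ± 9.75 (exact permutation p = 0.6).

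Lys-TTT-1 carried nearly all Lys-TTT reads, with 9784, 12938 and 8369 in ESC and 7801, 30124 and 12945 in Fb replicates 1, 2 and 3. Within tRNA reads it did not pass at 1.03 on the log2 scale (SE 0.55, edgeR adjusted p = 0.126), passed without Fb replicate 1 (1.39, SE 0.38, edgeR adjusted p = 0.0126), and fell with TMM factors (-1.86, SE 0.39, edgeR adjusted p = 0.00950). Its share of Lys-TTT reads was 99.6%, 99.5% and 99.5% in ESC against 96.4%, 96.3% and 96.6% in Fb exosomes. The minor Lys-TTT-2 had 16, 37 and 25 reads in ESC and 124, 1052 and 304 in Fb exosomes, and rose within tRNA reads (4.56, SE 1.00, edgeR adjusted p = 0.00418) but not with TMM factors (1.59), by DESeq2 (1.22) or outside glycine and glutamate tRNAs (-0.08). The sparse Lys-TTT-5 had 21, 21 and 0 reads in ESC and 157, 65 and 139 in Fb replicates 1, 2 and 3. It rose within tRNA reads (3.44, SE 1.24, edgeR adjusted p = 0.0365) but not with TMM factors (0.86), by DESeq2 (0.75) or outside glycine and glutamate tRNAs (-1.20). The Lys-TTT-5 call was also lost with no count filter (edgeR adjusted p = 0.0762) and without ESC replicate 1 (3.93, edgeR adjusted p = 0.0791), ESC replicate 2 (3.76, edgeR adjusted p = 0.0975) or Fb replicate 3 (3.21, edgeR adjusted p = 0.0858).

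Within histidine, the minor isodecoders gained share in Fb exosomes. His-GTG-2 held 98.4%, 97.4% and 98.1% of His-GTG reads in ESC and 91.2%, 87.4% and 88.1% in Fb replicates 1, 2 and 3. His-GTG-1 went from 1.38% ± 0.222 to 5.11% ± 1.26 and His-GTG-3 from 0.650% ± 0.334 to 5.98% ± 0.924. For each of the 3 shares the groups did not overlap (exact permutation p = 0.1, adjusted exact p = 0.208 over 133 isodecoders), as for 48.1% of those 133.

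Within tRNA reads His-GTG-3 rose by 7.09 on the log2 scale (SE 0.83, edgeR adjusted p = 1.78e-04). His-GTG-1 rose by 5.81 (SE 0.75, edgeR adjusted p = 3.29e-04) and His-GTG-2 by 3.70 (SE 0.41, edgeR adjusted p = 1.78e-04). With the library size without glycine and glutamate tRNAs neither passed, at 1.12 for His-GTG-1 (edgeR adjusted p = 0.153) and -1.02 for His-GTG-2 (edgeR adjusted p = 0.0515), and DESeq2 did not call His-GTG-2 (0.63, adjusted p = 0.0910). Of 10 lysine and histidine isodecoders tested, 7 rose, Lys-TTT-5 among them, and 0 fell, where 60.9% of 133 tRNA isodecoders rose and 4.51% fell. With TMM factors 5 of these 10 rose and 1 fell, where 36 isodecoders rose and 34 fell. The 3 that did not pass in the edgeR test were Lys-TTT-1, Lys-TTT-3 and Lys-CTT-1, and only Lys-CTT-1 of these 10 had a negative log2 fold change (-1.19, SE 1.17) with tRNA totals. Within all assigned reads 6 of the 10 rose and 0 fell by edgeR, where 51.9% of 135 tRNA isodecoders rose and 2.96% fell, and 4.87% and 7.22% of 2977 RNAs did. The sparse Lys-CTT-1 had 16, 15 and 10 reads in ESC and 13, 2 and 0 in Fb replicates 1, 2 and 3. Within tRNA reads it fell by DESeq2 (-3.67, adjusted p = 0.0147), where 43 of 133 isodecoders fell. It fell without Fb replicate 1 (-3.31, edgeR adjusted p = 0.0204), where 26 of 151 fell. Outside glycine and glutamate tRNAs it fell (-5.89, edgeR adjusted p = 0.00763), where 81 of 165 fell.

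Reads were divided among identical gene copies in a way that differed between libraries, so single genes are uncertain. Copy 4 of Lys-CTT-3 (tRNA-Lys-CTT-3-4) took 87.4%, 99.4% and 99.1% of that isodecoder's reads in ESC libraries and 96.7% in Fb replicate 1. In Fb replicates 2 and 3 it had under 1 read, and tRNA-Lys-CTT-3-1 and tRNA-Lys-CTT-3-2 took 49.8% and 50.1% in replicate 2 and 65.1% and 34.9% in replicate 3. Likewise tRNA-Lys-CTT-2-1 had 35.1 reads in the first Fb library against 28085.5 and 30104.8 in the others, and its copy tRNA-Lys-CTT-2-2 had 16120.1, 71320.8 and 14804.2.

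Among Lys-TTT-1 genes, tRNA-Lys-TTT-1-4 went from 85.6%, 52.0% and 56.1% of the isodecoder in ESC to 23.9%, 8.65% and 8.32% in Fb replicates 1, 2 and 3. The copy tRNA-Lys-TTT-1-2 held 37.4% and 39.7% in ESC replicates 2 and 3 but under 0.001% in ESC replicate 1. In Fb exosomes it likewise held 78.3% and 47.7% in replicates 2 and 3 but under 0.001% in replicate 1. The histidine reads were steadier, with tRNA-His-GTG-2-7 at 78.0%, 90.5% and 85.0% in ESC and 99.6%, 94.4% and 85.3% in Fb exosomes. Tested as single genes within tRNA reads, 8 of 17 members rose and 0 fell by edgeR, where 53.2% of 156 tRNA genes rose and 4.49% fell.

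**Figure D5:**
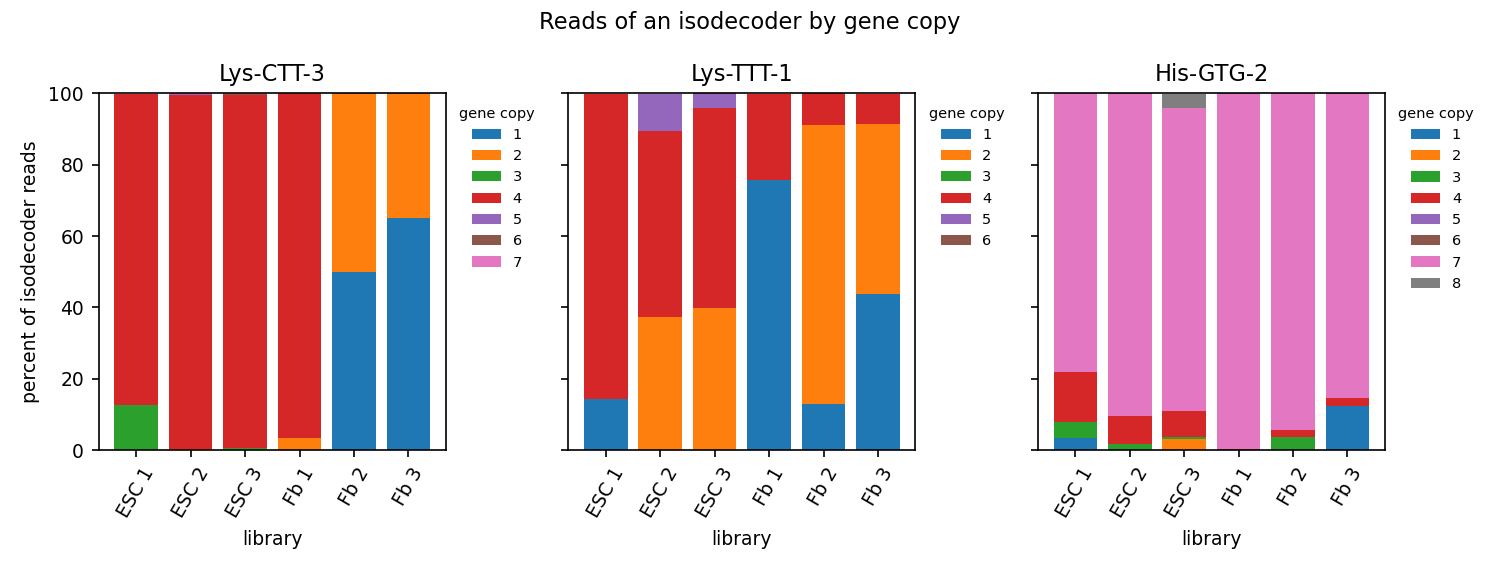
Percent of the reads of Lys-CTT-3, Lys-TTT-1 and His-GTG-2 assigned to each of their gene copies, which share one mature sequence, in each library. Copy 4 holds most Lys-CTT-3 reads in the ESC libraries and Fb replicate 1 and almost none in Fb replicates 2 and 3, and copy 7 holds most His-GTG-2 reads in every library.

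The tRNAs that share a property with the members gave these counts within tRNA reads, all of which depended on the scaling. They are to be read beside the 72.3% of all 47 anticodons that rose and the 8.51% that fell. The counts with TMM factors are to be read beside the 12 of 47 that rose and the 16 that fell on that scale. The median of the 47 was then -0.473. Of 4 tRNAs that can bear queuosine, His-GTG and Asn-GTT rose and Asp-GTC and Tyr-GTA did not pass, with a median log2 fold change of 2.50, whereas with TMM factors 0 rose and Asp-GTC and Tyr-GTA fell by edgeR. Asn-GTT stood at 4.18 (SE 0.78), Asp-GTC at 0.28 (SE 0.66) and Tyr-GTA at 1.14 (SE 0.54). Of 5 tRNAs with a thiolated or similarly modified first uridine, Gln-TTG and Arg-TCT rose, Glu-TTC and Gly-TCC fell and Lys-TTT did not pass, with a median of 1.08, and with TMM factors 1 rose and 3 fell. The median of all 47 anticodons was 2.54.

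Of 10 tRNAs known for abundant 5′ fragments, 6 rose, Gly-CCC and Glu-TTC fell, and Lys-TTT and Asp-GTC did not pass, with a median of 1.09, and with TMM factors 3 rose and 6 fell. Of the 3 sources of the sex hormone-dependent fragments described in human breast and prostate cancer cells, Lys-CTT and His-GTG rose and Asp-GTC did not pass, with a median of 3.85, and with TMM factors Lys-CTT rose and Asp-GTC fell. Of 8 tRNAs of the basic amino acids, 7 rose, among them all 5 for arginine, and Lys-TTT did not pass, with a median of 4.96, and with TMM factors 4 rose and Lys-TTT fell.

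Glutamine tRNAs had the log2 ratio of mean shares nearest to both lysine and histidine, at 3.87 against 3.98 and 3.85, over 22 amino acid groups. Lysine and histidine were the next nearest to each other. Against valine, ranked next above lysine, the members divided. The ratios to valine were not among the planned tests, and their p-values were adjusted over the same 11 ratios as the CTT share. The log2 ratio of Lys-TTT to valine reads went from -1.62 ± 0.30 to -5.95 ± 1.26 and that of histidine to valine reads from -2.46 ± 0.46 to -3.88 ± 0.82, without overlap (exact permutation p = 0.1, adjusted exact p = 0.157). The log2 ratio of Lys-CTT to valine reads overlapped, at -4.31 ± 0.21 and -3.01 ± 1.31 (exact permutation p = 0.4).

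The mitochondrial counterparts were scarce. The mitochondrial histidine tRNA, mt-Th, had 33, 49 and 73 reads in ESC and 8, 12 and 10 in Fb replicates 1, 2 and 3. In CPM of assigned reads this was 4.92 ± 1.91 and 1.28 ± 0.240, lower in every Fb library (exact permutation p = 0.1). The median log2 fold change of the 2889 RNAs tested within all assigned reads was also negative, at -0.83. How many RNAs were lower in every Fb library was not counted, so mt-Th is not set apart from them. The mitochondrial lysine tRNA, mt-Tk, had 2 reads each in ESC replicates 1 and 2 and 0 in the other 4 libraries, at or under the floor of 3 reads.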

How the data were processed

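Small RNA of exosomes was sequenced in 3 ESC and 3 Fb libraries, and the titles gave the groups. Exosomes were pelleted by ultracentrifugation and libraries built with the CleanTag kit, then cut from a gel, per the labels' protocols. FastQC, cutadapt and the build GRCm38 come per the submitters' processing notes. For the aligner, the counter, the use of strand and reads that match several genes, the method is not given in the sources used here. As deposited by the authors, values were estimated counts per RNA. Of nonzero values 82.6% to 92.2% were fractional, and library totals lay within 0.000660 of a whole number.

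Counts were summed by the fields of the tRNA name and rounded. edgeR 4.0.16 (R 4.3.3; quasi-likelihood test, filterByExpr with minimum count 10 and minimum total 15, group as only term, adjusted p of 0.05) was run on tRNA sums with tRNA totals as library size and on all RNAs with assigned totals, without further factors; SE is the fold change over the root of the F statistic. Permutation tests on shares were exact (Python 3.11.15), on sums with a mean of at least 10 reads. The fits were run on simulated counts with a fixed spread, nearly as many rises as falls and the most abundant RNAs unchanged. That setting is unlike these data, so it does not show how the fits perform here. Isodecoders with at least 5% of an anticodon and genes with at least 10% of an amino acid were named, besides all sums. Lys-TTT-2, Lys-TTT-3, Lys-TTT-5 and Lys-CTT-1 held less and were named outside this rule, for their test results. Members and lists were chosen with earlier results of these data known. Alternatives were TMM or upper-quartile factors, DESeq2 1.42.0, limma-trend 3.58.1 with a prior count of 2, other count filters, other library sizes and denominators, single genes, a replicate block and leaving out each library.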

Additional observations from a re-analysis of the deposited data

How the results depend on the processing

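Lys-CTT kept its direction and its call under every alternative run, at log2 fold changes of 2.02 to 7.08 within tRNA reads and 6.41 to 9.12 within all reads, and the CTT share of lysine reads was 73.4 to 75.6 percentage points higher in Fb exosomes when any 1 library was left out. Within tRNA reads, TMM factors took away the calls for lysine (0.86) and His-GTG (0.64) and turned Lys-TTT to -2.27, and DESeq2 turned Lys-TTT to -1.59. The library size without glycine and glutamate tRNAs turned lysine (-0.70), histidine (-0.88), His-GTG (-0.88) and Lys-TTT (-3.60). Lys-TTT-1 turned to -1.86, -2.17 and -3.65 under these 3 settings and His-GTG-2 to -1.02 under the last. In percentage points of the tRNA reads outside glycine and glutamate, lysine was at -7.97, histidine at -4.63, Lys-TTT at -16.5 and His-GTG at -4.63. Leaving out 1 library gave Lys-TTT 0.46 to 1.44 within tRNA reads and 0.58 to 1.48 within all reads, where DESeq2 called it (3.58). Anticodons that rose numbered 12 with TMM, 17 with DESeq2 and 5 without glycine and glutamate in the library size. Those that fell numbered 16, 15 and 27. Tested as single tRNA genes, 83 of 156 rose and 7 fell. RNAs that rose numbered 198 with TMM, 317 with DESeq2, 216 with upper-quartile factors and 56 to 224 with 1 library left out. Those that fell numbered 106 with TMM, 133 with upper-quartile factors and 124 to 2384 with 1 library left out. The log2 ratio of lysine to histidine reads was -0.17 to 0.28 with 1 library left out, and the Lys-CTT-3 share of Lys-CTT ranged from -8.33 to 0.716 percentage points, turning without Fb replicate 2. The causes were not tested, beyond the smaller number of libraries or the other scale that each setting brings. The labels' replicate numbers do not pair the libraries. Deviations of same-numbered libraries correlated at 0.19, -0.09 and 0.28 over 47 anticodons, and not every library correlated best with its own number. The replicate block changed no call among the lysine and histidine sums, with Lys-CTT at 6.51, Lys-TTT at 0.88 and His-GTG at 3.79 within tRNA reads. With 3 libraries a group, an exact test cannot go below p = 0.1.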
